A study of Gallus gallus with 12 samples.

Results

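Gene expression was compared directly between chick limb cells made to express KLF2 and chick limb cells made to express KLF4. These are the 2 libraries titled KLF2 RNA and the 2 titled KLF4 RNA, taken by their titles, so 4 of the 12 libraries of the series. All were made from limb-bud mesenchymal cells of embryonic day 4.5 chick embryos (Lohmann Selected Leghorn). Before plating, the cells were infected with the avian retrovirus RCAS-BP(A), which carries its insert into dividing chick cells. The virus was RCAS-BP(A)-KLF2-3F in the KLF2 group, RCAS-BP(A)-KLF4-3F in the KLF4 group and RCAS-BP(A)-empty in Control. High-density droplet cultures, in which limb cells form cartilage among connective tissue and muscle cells, were then kept for 5 days. Each RNA extract pooled 6 cultures. Control is given below only as a reference level, and the other groups, infected with virus for OSR1, OSR2 or EGR1, serve for the spread and for a second direct comparison. Neither the species of the inserts nor the separate origin of replicates is stated in the labels, so a p-value below speaks only of the spread among these libraries, which may be technical.

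KLF2 and KLF4 are Krüppel-like factors, transcription factors that bind GC-rich and CACCC-type DNA through zinc fingers at the end of the protein. These fingers are very similar in both factors, while the parts that recruit other proteins differ more. In mammals KLF2 is known for its part in quiescent, flow-exposed endothelium and in T cells, and KLF4 for its part in the barrier layer of skin and gut epithelium, in smooth muscle and in reprogramming to pluripotency. In embryonic stem cells of the mouse they can partly stand in for each other. Both are expressed in the connective tissue of the limb.

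Library totals were 97733305 and 91316919 counts for KLF2 and 74139243 and 94891254 for KLF4, within the series range of 51233721 to 106079374. The KLF2 replicates differed more from each other than the KLF4 replicates. The root mean square log2 distance over genes of at least 5 counts per 1000000 (CPM) was 0.273 between the former and 0.111 between the latter. The 4 distances from a KLF2 to a KLF4 library ran from 0.235 to 0.332. KLF2 replicate 1 lay 0.268 and 0.235 from KLF4 replicates 1 and 2, nearer than to KLF2 replicate 2. KLF2 replicate 2 lay 0.331 and 0.332 from KLF4 replicates 1 and 2. OSR1 and OSR2 libraries, also of related factors, lay 0.221 to 0.277 apart, beside 0.357 between the OSR1 replicates and 0.18 between the OSR2 replicates. Control lay 0.581 to 0.884 from the KLF libraries. The 5.8S rRNA entry was at 1982 and 2656 CPM in KLF2 and 2394 and 5608 CPM in KLF4, and entries of retroviral genes took 0.838% and 0.765% of counts in KLF2, 1.01% and 0.986% in KLF4 and 3.47% and 3.44% in Control. Their part in the differences below was not tested.

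Each factor's transcript was high in its own libraries and near the Control level in the libraries of the other factor. The OSR1 and OSR2 libraries lay above that level, at 39.5 to 74.2 CPM for KLF2 and 28.1 to 34.95 CPM for KLF4. KLF2 stood at 1793 and 1613 CPM in the KLF2 libraries, at 29.9 and 30.3 CPM in the KLF4 libraries and at 27.4 and 39.9 CPM in Control. KLF4 stood at 1292 and 1176 CPM in the KLF4 libraries, at 16.1 and 18.2 CPM in the KLF2 libraries and at 17.1 and 18.8 CPM in Control. No library of one factor approached the level of the other factor's transcript in its own libraries. The difference, given throughout as log2 of KLF2 over KLF4 with its standard error (SE), was 5.82 (SE 0.28) for KLF2 and -6.17 (SE 0.11) for KLF4, at adjusted p = 1.4e-04 and 2.94e-09. Unless another fit is named, adjusted p-values are Benjamini-Hochberg values over 18979 genes from edgeR's quasi-likelihood test, with n = 2 libraries a group. Reads of the insert and of the chick gene were not separated in the counts, and the level of one gene cannot be set against that of another because no gene lengths were used. Whether the KLF2 and KLF4 proteins were made in equal amounts cannot be told from these counts.

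**Figure D1:**
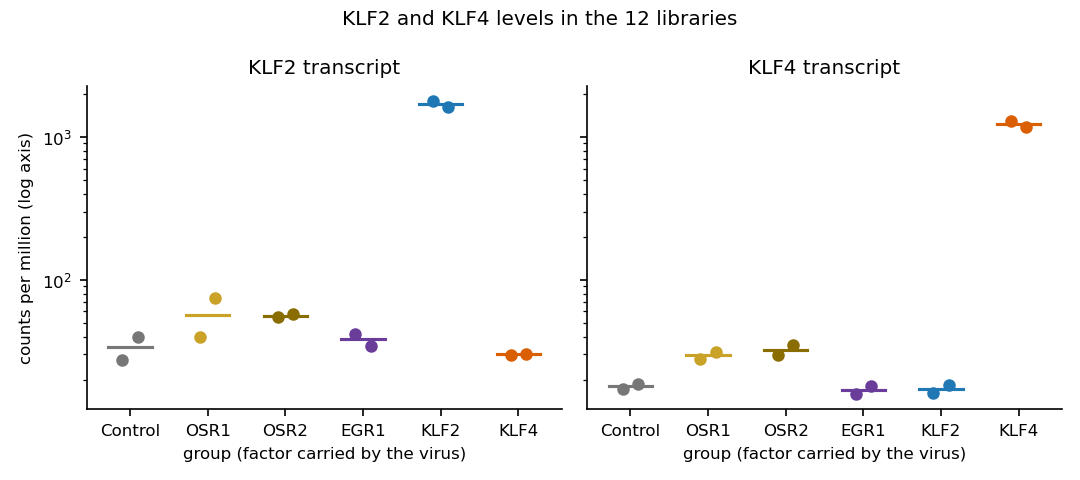
CPM of the KLF2 transcript (left) and of the KLF4 transcript (right) in each of the 12 libraries, on log axes, by the factor that the virus carried. Points are libraries and lines are group means, and only the group that carried the factor stands above 1000 CPM.

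At an adjusted p under 0.05, 505 genes differed between KLF2 and KLF4 libraries, which is 2.66% of the genes tested. Of these, 377 (1.99% of the genes tested) were higher in KLF4 and 128 (0.674%) were higher in KLF2. Differences towards KLF4 were also larger, with a median size of 0.97 on the log2 scale against 0.64 towards KLF2. Past 2-fold there were 182 genes higher in KLF4 and 19 higher in KLF2, and past 4-fold 43 and 3, the factors themselves included. The groups did not overlap for any of the 505 genes, and they did not overlap for 48.4% of all genes tested either, with KLF2 above for 24.9% and KLF4 above for 23.5%. For comparison, the same test called 2 genes (0.0105%) between OSR1 and OSR2, with 729 genes there at an unadjusted p under 0.05 against 2745 between KLF2 and KLF4. The OSR count was 103 without OSR1 replicate 1, 8 without OSR1 replicate 2, 2 without either OSR2 replicate, and 35 by DESeq2, which called 781 between KLF2 and KLF4. The difference between the counts of the 2 comparisons was not tested, and the OSR1 replicates lay farther apart (0.357) than any OSR1 library from an OSR2 library (up to 0.277). For 14654 genes (77.2%) the 95% interval of the difference lay inside 2-fold either way, so for most genes measured here a 2-fold difference lay outside the interval.

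In a fit without 1 KLF library, that library's group held only 1 library, so the spread came from the other groups. Which genes were called changed when 1 library was left out, and so did the number called. It was 471 without KLF2 replicate 1, 169 without KLF2 replicate 2, 93 without KLF4 replicate 1 and 158 without KLF4 replicate 2. The genes called in each of these 4 fits numbered 92, of which 87 were higher in KLF4 and 5 in KLF2. In a fit of the 4 KLF libraries alone, 258 genes were called, 244 of them higher in KLF4. Of the 258, 201 were among the 505 genes called in the main fit (39.8% of the 505).

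**Figure D2:**
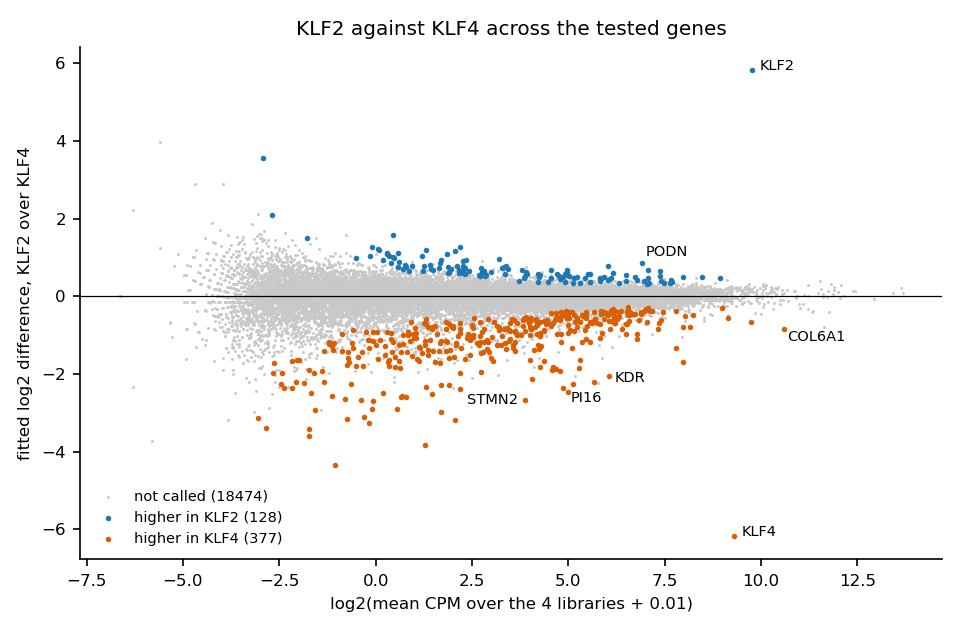
Fitted log2 difference of KLF2 over KLF4 (vertical) against log2 of the mean CPM over the 4 libraries plus 0.01 (horizontal) for each gene tested. Coloured points passed the test, 377 below the line at 0 (higher in KLF4) and 128 above it (higher in KLF2), and the KLF2 and KLF4 transcripts lie farthest from 0.

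The genes described first have the largest differences towards KLF4 among those with a symbol and a mean of at least 5 CPM, and some less abundant genes given further on differed more. In these bulk samples more cells of a type and more RNA per cell cannot be told apart. STMN2, a tubulin-binding protein of growing nerve processes, was at 3.90 and 4.03 CPM in KLF2 and at 28.4 and 21.8 CPM in KLF4 (-2.66, SE 0.15, adjusted p = 2.08e-05). The secreted peptidase-inhibitor family member PI16 was at 10.2 and 8.78 CPM in KLF2 and at 51.2 and 46.9 CPM in KLF4 (-2.37, SE 0.12). S100A4, a calcium-binding protein of motile and fibroblast-type cells, was at 12.8 and 11.1 CPM in KLF2 and at 60.0 and 55.1 CPM in KLF4 (-2.27, SE 0.16). In each of these genes both KLF4 libraries were more than 4 times as high as either KLF2 library, and Control lay below both groups.

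Among surface proteins, the VEGF receptor KDR was at 28.1 and 23.4 CPM in KLF2, 108.8 and 106.1 CPM in KLF4 and 13.5 and 13.4 CPM in Control (-2.06, SE 0.10, adjusted p = 5.72e-06). PSCA, a GPI-anchored surface antigen of epithelia, was at 20.6 and 15.7 CPM in KLF2 and at 93.2 and 75.1 CPM in KLF4 (-2.21, SE 0.22). CD55, which protects cells from complement, was at 3.00 and 2.45 CPM in KLF2 and at 10.5 and 10.7 CPM in KLF4 (-1.96, SE 0.19). The epithelial integrin subunit ITGB6 was at 10.6 and 9.44 CPM in KLF2 and at 37.96 and 37.3 CPM in KLF4 (-1.91, SE 0.11). All 4 were lowest in Control, intermediate in KLF2 and highest in KLF4. The secreted or enzymatic genes TNFSF15, a cytokine of the TNF family (-1.87, SE 0.13), and MOXD1, a copper-dependent monooxygenase relative (-1.92, SE 0.14), had the same order.

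ITIH5, a hyaluronan-binding matrix protein, had another order. It was at 5.75 and 6.67 CPM in KLF2, at 9.34 and 9.19 CPM in Control and at 32.1 and 22.0 CPM in KLF4 (-2.12, SE 0.17, adjusted p = 1.58e-04), so KLF2 lay below Control and KLF4 above it. SCEL, a precursor of the cornified envelope of skin cells, was at 10.0 and 9.36 CPM in KLF2 and at 57.3 and 50.5 CPM in KLF4 (-2.47, SE 0.36, adjusted p = 0.0124). Of the 12 genes with the largest difference towards KLF4 among those with a mean of at least 5 CPM, SCEL was the only one that lost its call without a library, at adjusted p = 0.0638 and 0.131 without KLF2 replicates 1 and 2 and 0.109 and 0.0619 without KLF4 replicates 1 and 2.

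Among genes with a symbol and a mean of at least 5 CPM, the 12 with the largest differences towards KLF2, the factor left out, were all under 2-fold. Less abundant genes went further, such as ADPRHL1, chosen after its values were seen, at 5.65 and 5.87 CPM in KLF2, 2.60 and 2.51 CPM in KLF4 and 26.4 and 23.4 CPM in Control (1.17, SE 0.12, adjusted p = 9.75e-04). PODN, a leucine-rich proteoglycan of the matrix, was at 134.7 and 173.1 CPM in KLF2, at 87.1 and 84.1 CPM in KLF4 and at 158.7 and 157.9 CPM in Control (0.85, SE 0.10, adjusted p = 0.00222). The endogenous retroviral entry ERVK-8 was at 92.5 and 72.1 CPM in KLF2, at 49.1 and 46.1 CPM in KLF4 and at 77.0 and 79.9 CPM in Control (0.79, SE 0.10, adjusted p = 0.00252), and reads of such entries can come from near-identical copies. For both genes KLF2 spanned the Control level while KLF4 lay below it. GCHFR, which regulates the first enzyme of tetrahydrobiopterin synthesis, was at 11.9 and 12.4 CPM in KLF2 and at 6.14 and 6.35 CPM in KLF4, with Control at 12.2 and 13.2 CPM (0.96, SE 0.14, adjusted p = 0.00574).

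3 further genes encode muscle proteins. MYOZ2, a Z-disc protein of slow and cardiac muscle (0.79, SE 0.13), SYNPO2L, an actin-associated Z-disc protein (0.75, SE 0.12), and TNNC1, the slow and cardiac troponin C (0.67, SE 0.13), were at 11.9 and 14.6, 14.1 and 11.1, and 33.7 and 42.3 CPM in KLF2. In KLF4 they were at 7.44 and 7.88, 7.21 and 7.72, and 23.8 and 24.1 CPM. SLC6A4, the serotonin transporter, had KLF2 libraries at 12.1 and 12.3 CPM against 7.09 and 7.58 CPM in KLF4 and 6.02 and 6.21 CPM in Control (0.73, SE 0.10, adjusted p = 0.0046). ALDH1A2, the main enzyme of retinoic acid synthesis in the embryo, was at 27.6 and 30.4 CPM in KLF2, 18.3 and 18.2 CPM in KLF4 and 27.8 and 25.8 CPM in Control (0.67, SE 0.11, adjusted p = 0.0099). The pentraxin PTX3, which takes part in hyaluronan-rich matrix and innate immunity, was at 171.4 and 158.7 CPM in KLF2, 103.9 and 104.1 CPM in KLF4 and 104.2 and 127.5 CPM in Control (0.67, SE 0.11, adjusted p = 0.0101). The other 3 of the 12 were CHRNA2, a nicotinic receptor subunit (0.93, SE 0.21, adjusted p = 0.0467), C14orf180 (0.73, SE 0.12) and SLC6A7, the proline transporter of brain (0.70, SE 0.13). Of these 12 genes, 9 stayed called without KLF2 replicate 1, 7 without KLF2 replicate 2, 2 without KLF4 replicate 1 and 3 without KLF4 replicate 2, with adjusted p-values of up to 0.162, 0.131, 0.409 and 0.184. PODN and ERVK-8 stayed called in each of the 4 fits.

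**Figure D3:**
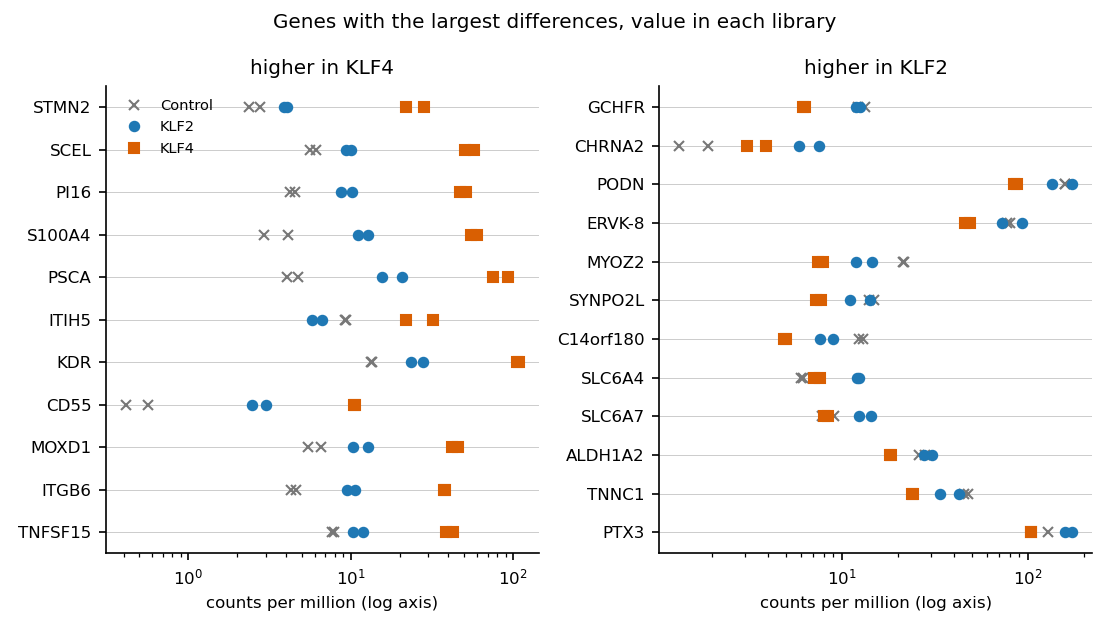
CPM in each Control, KLF2 and KLF4 library (log axes) for genes with the largest called differences among those with a symbol and a mean of at least 5 CPM, 11 higher in KLF4 (left) and 12 higher in KLF2 (right). KLF4 libraries lie to the right of both other groups in the left panel, and in the right panel KLF4 lies below KLF2 while Control often lies near or above KLF2.

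Where Control lay differed between the directions. Of the 377 genes higher in KLF4, the Control mean was below both KLF groups for 248 (65.8%), between them for 96 (25.5%) and above both for 33 (8.75%). Over all genes tested with a KLF4-higher estimate, these shares were 50.8%, 10.2% and 39.1%. Of the 128 genes higher in KLF2, Control was below both for 17 (13.3%), between for 50 (39.1%) and above both for 61 (47.7%), against 39.6%, 11.8% and 48.5% over all genes with a KLF2-higher estimate. Most calls towards KLF4 were thus of genes that were above Control in both groups and farther above it in KLF4. These shares are descriptions without a test, since a larger called difference makes room for Control between the groups.

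Markers of epidermis were the list with the largest median difference. Of 38 measured members, 5 were called and all 5 were higher in KLF4 (13.2% against the 2.66% of all genes), and 28 had both KLF4 libraries above both KLF2 libraries and 3 the reverse, where all genes tested had 23.5% and 24.9%. The list median was -1.25, beside 0.02 for all genes tested. KRT7, a keratin of simple and ductal epithelia, was at 124.2 and 112.4 CPM in KLF2, 409.8 and 356.7 CPM in KLF4 and 64.2 and 70.4 CPM in Control (-1.70, SE 0.27, adjusted p = 0.0186). The desmosome-linked cornified envelope protein PPL was at 22.0 and 17.3 CPM in KLF2, 49.2 and 49.0 CPM in KLF4 and 13.2 and 13.6 CPM in Control (-1.32, SE 0.14, adjusted p = 0.0012). GRHL1, a grainyhead transcription factor of epidermal differentiation (-1.16, SE 0.22, adjusted p = 0.0201), and ST14, a membrane serine protease of the skin barrier (-0.62, SE 0.14, adjusted p = 0.0439), were also called. In these 4 genes KLF4 was the highest of the 3 groups.

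The other 33 epidermal members did not pass the test, many of them with a wide error. KRT14, a keratin of the basal layer, was at 17.8 and 10.7 CPM in KLF2 and 42.6 and 34.4 CPM in KLF4 (-1.43, SE 0.55, adjusted p = 0.284). The tight-junction gene CLDN1 was at 29.1 and 29.2 CPM in KLF2 and 96.3 and 80.0 CPM in KLF4 (-1.60, SE 0.37, adjusted p = 0.0775). TP63, the master regulator of stratified epithelium, was at 4.90 and 4.27 CPM in KLF2 and 7.75 and 6.49 CPM in KLF4 (-0.63, SE 0.15, adjusted p = 0.054). CDH1, the epithelial cadherin, was at 3.80 and 3.01 CPM in KLF2 and 7.63 and 6.01 CPM in KLF4 (-0.999, SE 0.39, adjusted p = 0.275). In contrast, KRT5 at 2.62 and 1.42 CPM in KLF2 and 1.39 and 1.19 CPM in KLF4, and GRHL2 at 0.69 and 0.71 CPM in KLF2 and 0.70 and 0.56 CPM in KLF4, had estimates above 0.

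Summed over the list, epidermal markers stood at 687.4 and 563.6 CPM in KLF2 and at 1415 and 1250 CPM in KLF4. The 8 libraries of the other groups, Control included, held 395.2 to 708.1 CPM. KRT7, the keratin of simple and ductal epithelia, made up 124.2 and 112.4 CPM of the KLF2 sums and 409.8 and 356.7 CPM of the KLF4 sums. The part of ectoderm cells in the difference was not tested. Without single libraries, 3 of the 5 calls were kept without KLF2 replicate 1 and 2 without each of KLF2 replicate 2, KLF4 replicate 1 and KLF4 replicate 2, with adjusted p-values of up to 0.0811, 0.258, 0.34 and 0.161. PPL stayed called in each of these fits, and the list median ran from -1.36 to -0.98. DESeq2 called 13 of the 38 members, all higher in KLF4.

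Further genes outside the list, epithelial ones first, were chosen after their values were seen. Their shared direction follows from that choice and adds nothing to the result of the list. PERP, a desmosome-associated target of p63, was at 18.5 and 19.7 CPM in KLF2 and 65.7 and 53.9 CPM in KLF4 (-1.65, SE 0.20, adjusted p = 0.00311). The membrane protease TMPRSS11D was at 0.30 and 0.33 CPM in KLF2 and 4.91 and 4.16 CPM in KLF4 (-3.84, SE 0.22, adjusted p = 1.87e-05), and the sodium channel subunit SCNN1A at 0.45 and 0.53 CPM in KLF2 and 2.96 and 2.89 CPM in KLF4 (-2.58, SE 0.21). Control was near the KLF2 level in PERP, at 16.2 and 15.6 CPM, and in TMPRSS11D, at 0.30 and 0.33 CPM. EZR, which links actin to the apical membrane, was at 26.9 and 23.5 CPM in KLF2 and 58.6 and 54.8 CPM in KLF4 (-1.17, SE 0.13, adjusted p = 0.00125). The hyaluronan receptor CD44 (-0.73, SE 0.07) and the hyaluronan synthase HAS2 (-0.95, SE 0.09) were also higher in KLF4, with HAS2 at 20.6 and 22.6 CPM in KLF2, 43.1 and 40.1 CPM in KLF4 and 21.6 and 22.3 CPM in Control. These 6 genes stayed called without any 1 of the 4 KLF libraries.

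Of 30 measured endothelial markers, 4 (13.3%, against 2.66% of all genes) were higher in KLF4 and none was higher in KLF2, with a list median of -0.25. Both KLF4 libraries lay above both KLF2 libraries for 18 members and the reverse held for 4, beside 23.5% and 24.9% of all genes tested. DESeq2 called 5, of which 1 was higher in KLF2. Besides KDR, the 4 calls of edgeR's test included EMCN, a sialomucin of venous and capillary endothelium, at 1.10 and 0.87 CPM in KLF2 and 2.80 and 2.899 CPM in KLF4 (-1.53, SE 0.20, adjusted p = 0.00337). The others were the less abundant SOX7, an endothelial transcription factor (-1.44, SE 0.26, adjusted p = 0.0164), and APLNR, the apelin receptor (-1.66, SE 0.39, adjusted p = 0.0477). APLNR was not called by DESeq2, which gave it no adjusted p. Other defining markers did not pass the test. PECAM1 was at 41.3 and 53.4 CPM in KLF2 and 43.5 and 42.0 CPM in KLF4 (0.15, 95% interval -0.18 to 0.47), and ERG, also expressed in cartilage, at 251.5 and 256.0 CPM in KLF2 and 253.3 and 269.5 CPM in KLF4 (-0.04, 95% interval -0.22 to 0.13). The endothelial cadherin CDH5 was at 2.45 and 2.69 CPM in KLF2 and 4.97 and 4.74 CPM in KLF4 (-0.91, SE 0.28, adjusted p = 0.135), and the known KLF2 target NOS3 at 1.04 and 0.57 CPM in KLF2 and 1.42 and 1.56 CPM in KLF4 (-0.88, SE 0.66, adjusted p = 0.599), both with KLF4 libraries above KLF2 libraries. Without single libraries, 3 of the 4 calls were kept without KLF2 replicate 1 and 2 without each of the other libraries, with adjusted p-values of up to 0.118, 0.252, 0.377 and 0.179. KDR and EMCN stayed called in each.

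In the skeletal muscle list the called members were higher in KLF2. Of 48 measured members, 9 were called (18.8%, against 2.66% of all genes) and 39 were not, 30 had both KLF2 libraries above both KLF4 libraries and 3 the reverse (24.9% and 23.5% of all genes tested), and the list median was 0.27. The called genes encode parts of the sarcomere and its calcium store. Cardiac-type troponin T, TNNT2, which embryonic skeletal muscle also expresses, was at 56.0 and 57.0 CPM in KLF2, 37.5 and 38.9 CPM in KLF4 and 72.2 and 81.9 CPM in Control (0.56, SE 0.09, adjusted p = 0.0063). The fast troponin I TNNI2 was at 54.7 and 54.5 CPM in KLF2 and 36.1 and 37.3 CPM in KLF4 (0.57, SE 0.10, adjusted p = 0.0099). The myosin heavy chain MYH15 was at 85.3 and 88.7 CPM in KLF2, 55.4 and 58.6 CPM in KLF4 and 68.4 and 68.9 CPM in Control (0.61, SE 0.09, adjusted p = 0.00731). The replicates of each group were close for these genes, and the groups lay well apart.

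TNNC1, MYBPC3, CASQ2, TNNI1, MYH1E and MYH7 were the other called genes, with differences of 0.35 to 1.12. Regulators of the myogenic programme were less clear, with MYOD1 at 7.42 and 7.54 CPM in KLF2 and 7.81 and 5.64 CPM in KLF4 (0.16, 95% interval -0.39 to 0.70) and MYOG at 2.28 and 3.13 CPM in KLF2 and 2.63 and 2.36 CPM in KLF4 (0.12, 95% interval -0.37 to 0.61). The actin gene ACTA1 differed by 0.05 (95% interval -0.29 to 0.39). Summed muscle markers stood at 2491 and 2327 CPM in KLF2, 1973 and 2061 CPM in KLF4 and 2665 and 2744 CPM in Control, so the KLF4 libraries had the lowest sums of these groups. None of the 9 calls stayed in every fit without 1 library. There remained 4 without KLF2 replicate 1, 2 without KLF2 replicate 2 and 0 without either KLF4 replicate, with adjusted p-values of up to 0.184, 0.187, 0.369 and 0.184.

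Smooth muscle and pericyte genes had 3 calls in 24 measured members (12.5%, against 2.66% of all genes), all higher in KLF2, at a list median of 0.11. The smooth muscle myosin MYH11 was at 4.70 and 3.81 CPM in KLF2, 2.23 and 2.22 CPM in KLF4 and 1.61 and 1.82 CPM in Control (0.94, SE 0.15, adjusted p = 0.00797). The pericyte gene RGS5 was at 2.13 and 2.14 CPM in KLF2 and 1.30 and 1.24 CPM in KLF4 (0.75, SE 0.15), and the myosin light chain kinase MYLK at 244.3 and 221.3 CPM in KLF2 and 170.7 and 179.6 CPM in KLF4 (0.41, SE 0.08). The contractile genes ACTA2 at 1493 and 1169 CPM in KLF2 and 1130 and 1114 CPM in KLF4 (adjusted p = 0.399) and TAGLN at 439.1 and 338.5 CPM in KLF2 and 387.5 and 354.1 CPM in KLF4 (adjusted p = 0.918) did not pass. The calls kept were 1 without KLF2 replicate 1, 2 without KLF2 replicate 2 and 0 without either KLF4 replicate, at adjusted p-values of up to 0.14, 0.105, 0.272 and 0.195, and the list median without KLF2 replicate 1 was -0.01.

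**Figure D4:**
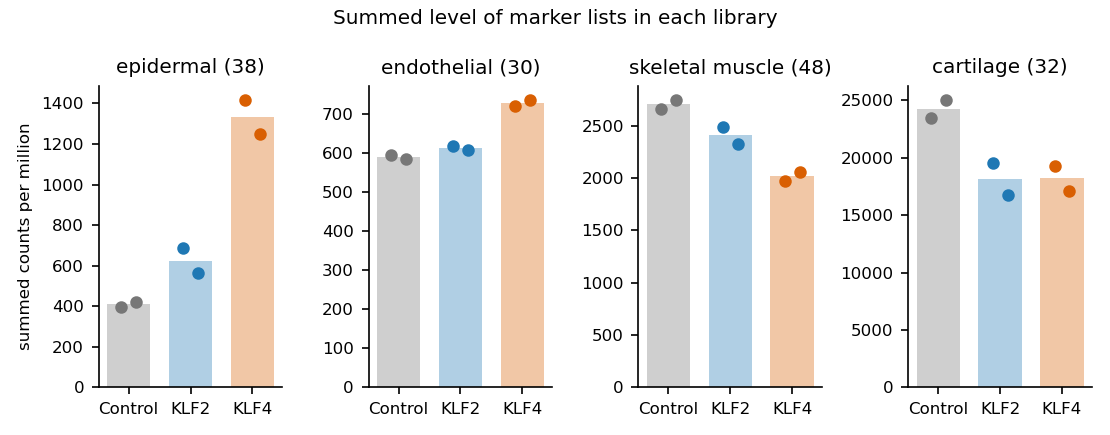
Summed CPM of the measured members of the epidermal, endothelial, skeletal muscle and cartilage lists in each Control, KLF2 and KLF4 library (points) with group means (bars, axes from 0). Epidermal sums are highest in KLF4, at 1415 and 1250 CPM, muscle sums are lowest there, at 1973 and 2061 CPM, and the cartilage sums of KLF2 and KLF4 overlap.

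Of 32 measured cartilage genes, only 1 was called (3.12%, against 2.66% of all genes). CLEC3A, a C-type lectin of cartilage matrix, was at 15.3 and 12.8 CPM in KLF2, 23.6 and 20.9 CPM in KLF4 and 30.5 and 30.4 CPM in Control (-0.67, SE 0.13, adjusted p = 0.0271). The cartilage collagen COL2A1 was at 5214 and 3958 CPM in KLF2 and 5011 and 4112 CPM in KLF4 (0.01, 95% interval -0.39 to 0.41), and the proteoglycan ACAN at 1379 and 1074 CPM in KLF2 and 1230 and 1241 CPM in KLF4 (-0.01, 95% interval -0.41 to 0.38). SOX9, the master transcription factor of chondrocytes, was at 276.1 and 321.7 CPM in KLF2 and 413.3 and 356.1 CPM in KLF4 (-0.36, 95% interval -0.68 to -0.04, adjusted p = 0.271). For COL2A1, ACAN and SOX9 the interval lay inside 2-fold. The list leaned towards KLF4, with a median of -0.144, beside 0.02 for all genes tested. Both KLF4 libraries lay above both KLF2 libraries for 14 members and the reverse held for 2, where all genes tested had 23.5% and 24.9%. The list median was -0.323 without KLF2 replicate 1 and -0.035 without KLF2 replicate 2. Without KLF2 replicate 2, KLF4 replicate 1 or KLF4 replicate 2 the CLEC3A call was lost, at adjusted p = 0.19, 0.287 and 0.0977.

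In genes of hypertrophic cartilage and bone, 2 of 27 were called (7.41%, against 2.66% of all genes), both higher in KLF4. ENPP1, which makes the mineral inhibitor pyrophosphate, was at 75.7 and 84.1 CPM in KLF2 and 112.1 and 109.6 CPM in KLF4 (-0.47, SE 0.07, adjusted p = 0.00797). The bone sialoprotein IBSP was at 5.40 and 2.91 CPM in KLF2, 10.7 and 11.9 CPM in KLF4 and 0.49 and 0.74 CPM in Control (-1.44, SE 0.29, adjusted p = 0.0324), so the KLF2 replicates were themselves apart. Both calls were kept without KLF2 replicate 1, 1 without KLF2 replicate 2 and 0 without either KLF4 replicate, at adjusted p-values of up to 0.0246, 0.15, 0.17 and 0.203. RUNX2, the osteoblast and hypertrophy regulator, was at 30.6 and 29.4 CPM in KLF2 and 29.9 and 31.5 CPM in KLF4 (-0.03, 95% interval -0.24 to 0.17).

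Of 18 tendon genes, 1 was called (5.56%, against 2.66% of all genes). KERA, a keratan sulphate proteoglycan, was at 16.6 and 17.2 CPM in KLF2 and 24.2 and 28.03 CPM in KLF4, with Control higher at 44.5 and 41.8 CPM (-0.63, SE 0.13, adjusted p = 0.0298). It was not called without any 1 of the 4 libraries (adjusted p = 0.0857, 0.131, 0.103 and 0.242). TNMD, a membrane protein of tendon cells, was at 155.8 and 171.8 CPM in KLF2 and 147.4 and 152.3 CPM in KLF4 (0.13, 95% interval -0.07 to 0.32). The tendon regulator SCX was at 7.35 and 5.41 CPM in KLF2 and 7.97 and 6.38 CPM in KLF4, with an interval of -1.24 to 0.90 that does not exclude a 2-fold difference.

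Among 48 connective tissue matrix genes, 3 were higher in KLF4 and 1 in KLF2 (8.33%, against 2.66% of all genes), and DESeq2 called 9. The collagen VI chains COL6A1, at 1222 and 986.3 CPM in KLF2, 1942 and 2020 CPM in KLF4 and 662.9 and 700.8 CPM in Control (-0.84, SE 0.12, adjusted p = 0.00397), and COL6A2, at 714.4 and 620.7 CPM in KLF2, 1048 and 1047 CPM in KLF4 and 387.8 and 400.9 CPM in Control (-0.65, SE 0.09, adjusted p = 0.00337), form pericellular microfibrils. The elastin-microfibril glycoprotein EMILIN2 was at 137.7 and 116.9 CPM in KLF2, 336.3 and 302.8 CPM in KLF4 and 64.5 and 65.2 CPM in Control (-1.33, SE 0.12, adjusted p = 3.9e-04). These 3 genes had the order Control, KLF2, KLF4 and stayed called without any 1 of the 4 KLF libraries. FBLN5, needed for elastic fibres, was higher in KLF2, at 204.6 and 199.5 CPM against 154.8 and 161.3 CPM (0.35, SE 0.07, adjusted p = 0.0182), a call lost without any 1 of the 4 libraries at adjusted p-values of 0.0863, 0.0658, 0.233 and 0.112. COL1A1, the main fibrillar collagen, was at 3459 and 2515 CPM in KLF2 and 3822 and 4133 CPM in KLF4 (-0.41, 95% interval -1.07 to 0.24).

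Basement membrane and integrin genes split by direction, and 18.8% of those measured were called, against 2.66% of all genes. Of 32 measured, 4 were higher in KLF2, namely the basement membrane genes NID1 (0.51, SE 0.08) and LAMA1 (0.65, SE 0.13) and the mesenchymal integrin subunits ITGA8 (0.53, SE 0.10) and ITGA4 (0.39, SE 0.08). NID1 was at 443.9 and 382.2 CPM in KLF2, 285.8 and 295.0 CPM in KLF4 and 364.0 and 360.5 CPM in Control. ITGA8 was at 197.1 and 196.0 CPM in KLF2, 133.4 and 138.7 CPM in KLF4 and 159.2 and 159.9 CPM in Control. The TGF-beta-activating integrin subunits ITGB6 and ITGB8 were higher in KLF4, ITGB8 at 34.4 and 33.9 against 25.5 and 23.5 CPM (-0.48, SE 0.09, adjusted p = 0.0186). Of the 4 calls towards KLF2, 1 was kept without KLF2 replicate 1, 2 without KLF2 replicate 2 and 0 without either KLF4 replicate, at adjusted p-values of up to 0.137, 0.106, 0.242 and 0.264. The ITGB8 call was kept without KLF2 replicate 1 only, and that of ITGB6 in all 4 fits.

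Of 39 matrix proteases and inhibitors, 2 were called (5.13%, against 2.66% of all genes), both higher in KLF4. The list median was 0.039, with 22 estimates above 0 and 17 below. Both KLF2 libraries lay above both KLF4 libraries for 14 members and the reverse held for 13. MMP7, the smallest matrix metalloproteinase and a product of epithelia, was at 1.43 and 1.501 CPM in KLF2, 5.55 and 4.11 CPM in KLF4 and 1.61 and 1.87 CPM in Control (-1.72, SE 0.19, adjusted p = 0.00134), and stayed called without any 1 library. ADAMTS6 was at 30.8 and 28.02 CPM in KLF2, 38.2 and 39.1 CPM in KLF4 and 49.3 and 46.6 CPM in Control (-0.39, SE 0.08, adjusted p = 0.0283), and was called without KLF2 replicate 1 but not without the others (adjusted p = 0.177, 0.194 and 0.207).

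In the BMP list 3 of 41 members were called (7.32%, against 2.66% of all genes), all of them ligands of the same group and all higher in KLF4. BMP5, a ligand of developing skeleton, was at 61.3 and 60.5 CPM in KLF2, 124.4 and 113.1 CPM in KLF4 and 27.7 and 26.2 CPM in Control (-0.96, SE 0.09, adjusted p = 2.66e-04). BMP7 was at 6.59 and 6.11 CPM in KLF2 and 13.6 and 12.3 CPM in KLF4 (-1.03, SE 0.17, adjusted p = 0.00962), and BMP6 at 13.7 and 11.2 CPM in KLF2 and 26.0 and 24.1 CPM in KLF4 (-1.01, SE 0.18, adjusted p = 0.0137). For BMP6 and BMP7 the KLF2 libraries were near Control, at 10.5 and 12.2 CPM and at 6.75 and 6.47 CPM. BMP5 stayed called without any 1 library, whereas the other calls held without KLF2 replicate 1 only, with adjusted p-values of up to 0.124, 0.134 and 0.0739 without the others. The list median was -0.03.

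In the WNT list 3 of 50 were called (6%, against 2.66% of all genes), all higher in KLF4. They were the ligands WNT2B, at 2.44 and 1.98 CPM in KLF2 and 5.22 and 4.70 CPM in KLF4 (-1.17, SE 0.22, adjusted p = 0.0186), and WNT2, under 0.4 CPM in all 4 libraries (-2.21, SE 0.35), and the nuclear effector LEF1, at 13.0 and 10.5 CPM in KLF2 and 18.4 and 16.2 CPM in KLF4 (-0.56, SE 0.12, adjusted p = 0.0439). All 3 stayed called without KLF2 replicate 1 and none without any other library, at adjusted p-values of up to 0.262, 0.399 and 0.125. In the TGF-beta list 2 of 26 were called (7.69%), namely the activin subunit INHBA, at 60.4 and 63.8 CPM in KLF2 and 96.1 and 89.3 CPM in KLF4 (-0.58, SE 0.09, adjusted p = 0.00856), and the SMAD corepressor SKIL (-0.37, SE 0.07, adjusted p = 0.0178). Both calls were kept without KLF2 replicate 1, 1 without KLF2 replicate 2 or KLF4 replicate 2 and 0 without KLF4 replicate 1, at adjusted p-values of up to 0.105, 0.163 and 0.147. Of 25 Notch genes the target HEY1 was called, at 43.6 and 43.7 CPM in KLF2 and 30.6 and 31.5 CPM in KLF4 (0.49, SE 0.11, adjusted p = 0.038), a call lost without any 1 of the 4 libraries at adjusted p-values of 0.0918 to 0.312. HEY1 was the only call, 4% of the Notch list, and NOTCH1 differed by -0.08 (95% interval -0.62 to 0.46).

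Retinoic acid genes had 4 calls in 19 members (21.1%, against 2.66% of all genes). ALDH1A2, which makes the ligand, was higher in KLF2, while the retinol receptor STRA6, the retinol-binding protein RBP5 and the retinol dehydrogenase RDH10, which act before it, were higher in KLF4. STRA6 was at 9.24 and 9.11 CPM in KLF2, 17.6 and 19.1 CPM in KLF4 and 4.52 and 4.79 CPM in Control (-1.0, SE 0.14, adjusted p = 0.00399). RDH10 was at 31.9 and 36.6 CPM in KLF2 and 47.2 and 50.4 CPM in KLF4 (-0.51, SE 0.10, adjusted p = 0.0186), and RBP5 at 3.38 and 3.81 CPM in KLF2 and 7.06 and 7.46 CPM in KLF4 (-1.02, SE 0.18, adjusted p = 0.0125). STRA6 stayed called without any 1 library, while the 3 calls towards KLF4 numbered 1 without KLF2 replicate 1, 2 without KLF2 replicate 2 and 1 without either KLF4 replicate, at adjusted p-values of up to 0.056, 0.0623, 0.116 and 0.182. ALDH1A2 was called without KLF2 replicate 1 only. The enzyme CYP26B1, which degrades retinoic acid, was at 96.7 and 94.8 CPM in KLF2 and 101.0 and 100.4 CPM in KLF4 (-0.07, 95% interval -0.28 to 0.13).

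The FGF list held 2 calls in 36 members (5.56%, against 2.66% of all genes). In the axon guidance list and the chemokine and cytokine list, 4.35% and 3.45% of members were called. FGFBP1, which releases FGFs from matrix, was at 0.78 and 0.68 CPM in KLF2, 6.02 and 5.47 CPM in KLF4 and 0.56 and 0.84 CPM in Control (-2.97, SE 0.33, adjusted p = 0.00163), and stayed called without any 1 library. The feedback inhibitor SPRY1 was higher in KLF2, at 26.5 and 28.02 CPM against 20.3 and 19.3 CPM (0.46, SE 0.08, adjusted p = 0.0138), and was called without KLF2 replicate 1 but not without the others (adjusted p = 0.0861, 0.116 and 0.16). Among 46 axon guidance genes SEMA3C (-0.37, SE 0.07) and SEMA3G (-0.99, SE 0.22), both secreted semaphorins, were higher in KLF4. Their calls numbered 1 without KLF2 replicate 1 and 0 without any other library, at adjusted p-values of up to 0.0662, 0.243, 0.219 and 0.244. The interleukin-1 receptor IL1R1 was the call among 29 chemokine and cytokine genes, at 9.22 and 7.78 CPM in KLF2, 16.8 and 15.8 CPM in KLF4 and 14.7 and 14.2 CPM in Control (-0.94, SE 0.11, adjusted p = 0.00189), and stayed called without any 1 library.

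No gene was called among 16 hedgehog, 59 limb patterning, 28 interferon and RNA-sensor, and 14 EGR, OSR and immediate-early genes. The list medians were -0.09, 0.06, 0.00 and -0.17. At an unadjusted p under 0.05 in edgeR's test there were 1, 7, 2 and 7 genes, beside 2745 of all 18979 genes tested. DESeq2 called 1, 2, 0 and 3, beside 781 in all. With 7 and 3 of its 14 members, the EGR, OSR and immediate-early list had larger shares than all genes. Among limb patterning genes the transcription factor TBX4 of the leg bud was at 174.6 and 183.3 CPM in KLF2 and 147.0 and 164.2 CPM in KLF4 (0.20, 95% interval 0.03 to 0.38, adjusted p = 0.267), and MSX2, a BMP-responsive homeobox gene, at 38.8 and 41.7 CPM in KLF2 and 39.4 and 37.9 CPM in KLF4 (0.06, 95% interval -0.21 to 0.32). The immediate-early genes FOSL2 (-0.57, SE 0.13, adjusted p = 0.0508) and FOS (-0.76, SE 0.19, adjusted p = 0.0634) had KLF4 libraries above KLF2 libraries without passing.

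Other Krüppel-like factors had 2 calls in 16 measured members of the KLF and SP family (12.5%, against 2.66% of all genes), KLF2 and KLF4 left out. KLF3, a repressor, was at 67.3 and 54.2 CPM in KLF2, 93.4 and 87.7 CPM in KLF4 and 32.1 and 31.3 CPM in Control (-0.58, SE 0.10, adjusted p = 0.00992). KLF9, a hormone-responsive member, was at 55.7 and 51.6 CPM in KLF2, 74.7 and 72.7 CPM in KLF4 and 50.0 and 50.5 CPM in Control (-0.46, SE 0.07, adjusted p = 0.00731). Both calls were kept without KLF2 replicate 1, 1 without KLF2 replicate 2 and 0 without either KLF4 replicate, at adjusted p-values of up to 0.0124, 0.056, 0.132 and 0.0597. KLF5, which acts with KLF2 and KLF4 in mouse embryonic stem cells, was at 21.6 and 23.7 CPM in KLF2 and 27.0 and 23.4 CPM in KLF4 (-0.15, 95% interval -0.42 to 0.11).

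Of 9 measured genes that work with these factors in pluripotency, 2 were called (22.2%, against 2.66% of all genes) and both were higher in KLF4. TFCP2L1, a transcription factor of naive stem cells and of epithelial ducts, was at 7.96 and 7.56 CPM in KLF2, 24.5 and 23.7 CPM in KLF4 and 7.50 and 6.27 CPM in Control (-1.63, SE 0.11, adjusted p = 9.31e-05). The entry POU5F1 bears the symbol of the stem cell factor used with KLF4 in reprogramming of mammalian cells. It was at 1.44 and 0.73 CPM in KLF2, 5.53 and 5.15 CPM in KLF4 and 0.06 and 0.12 CPM in Control (-2.29, SE 0.28, adjusted p = 0.00236). Both stayed called without any 1 library. SOX2 was under 0.1 CPM in all 4 libraries, and MYC was at 17.4 and 16.4 CPM in KLF2 and 18.1 and 14.2 CPM in KLF4 (adjusted p = 0.829).

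Lists of macrophage, blood and neural markers held 1, 1 and 3 calls (4.55%, 12.5% and 13.6% of members), all higher in KLF4. Of 22 macrophage genes ITGB2, a leukocyte integrin subunit, was called, at 3.31 and 2.67 CPM in KLF2 and 5.33 and 4.84 CPM in KLF4 (-0.76, SE 0.16, adjusted p = 0.0363), while the summed list was at 112.0 and 102.5 CPM in KLF2 and 109.7 and 98.5 CPM in KLF4. Of 8 blood genes the haemoglobin entry HBG2 was called, at 8.83 and 10.2 CPM in KLF2 and 21.9 and 27.9 CPM in KLF4 (-1.39, SE 0.16, adjusted p = 0.00144), while HBG1, a like-named entry that can share reads with it, was at 4.18 and 3.07 CPM in KLF2 and 3.56 and 5.59 CPM in KLF4 (adjusted p = 0.61). The glia, neuron and pigment list had a median of -0.018, with 10 estimates above 0 and 12 below. Both KLF4 libraries lay above both KLF2 libraries for 8 of its members and the reverse held for 6. The list had 3 calls in 22 (13.6%, against 2.66% of all genes). They were STMN2, the neurofilament NEFM, at 7.36 and 8.41 CPM in KLF2 and 15.1 and 14.4 CPM in KLF4 (-0.90, SE 0.14, adjusted p = 0.00865), and the neural crest factor SOX10, at 0.23 and 0.18 CPM in KLF2 and 1.45 and 1.17 CPM in KLF4 (-2.68, SE 0.48, adjusted p = 0.014). Without single libraries, ITGB2 was called without KLF2 replicate 1 only (up to adjusted p = 0.308 without the others), HBG2 and STMN2 in all 4 fits, and the 3 neural calls numbered 2, 2, 1 and 1 in the order KLF2 replicates 1 and 2 and KLF4 replicates 1 and 2, at adjusted p-values of up to 0.055, 0.134, 0.134 and 0.0723.

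None of 81 ribosomal protein genes was called (median 0.14, 38 with KLF2 libraries above KLF4 libraries and 7 with the reverse, beside 24.9% and 23.5% of all genes). None of 90 respiratory chain genes was called (median 0.03, beside 0.02 for all genes). Of 40 genes of endoplasmic reticulum and amino acid stress none was called either (median 0.13, 16 with KLF2 libraries above KLF4 libraries and 5 with the reverse). At an unadjusted p under 0.05 in edgeR's test there were 3, 1 and 9 genes in these lists, beside 2745 of all 18979 genes tested. With 9 of its 40 members, the stress list had a larger share than all genes. DESeq2 called 0, 0 and 1, beside 781 in all. RPL3 was at 859.5 and 873.1 CPM in KLF2 and 698.3 and 747.1 CPM in KLF4 (0.26, SE 0.10, adjusted p = 0.273). Among 50 cell cycle genes the pocket protein RB1 was called, at 61.2 and 64.5 CPM in KLF2 and 80.3 and 77.4 CPM in KLF4 (-0.33, SE 0.07, adjusted p = 0.03), and it was not called without any 1 library (adjusted p = 0.0591 to 0.305). RB1 was the only call, 2% of the cell cycle list against 2.66% of all genes. The cell cycle inhibitor CDKN1A, a known target of KLF4 in mammals, was at 66.7 and 64.9 CPM in KLF2 and 74.8 and 67.5 CPM in KLF4 (-0.11, 95% interval -0.52 to 0.30).

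Of 39 genes of glycolysis and hypoxia the carbonic anhydrase CA9 was called, higher in KLF4 (-0.58, SE 0.12, adjusted p = 0.0339), which held without KLF2 replicate 1 only (adjusted p = 0.211, 0.215 and 0.205 without the others). CA9 was 2.56% of its list, and of 44 genes of sterol and lipid metabolism 2 were called (4.55%), against 2.66% of all genes. The fatty-acid-binding proteins FABP3, at 13.7 and 9.09 CPM in KLF2 and 26.9 and 28.2 CPM in KLF4 (-1.27, SE 0.18, adjusted p = 0.0047), and FABP5, at 2.001 and 2.03 CPM in KLF2 and 4.60 and 4.28 CPM in KLF4 (-1.14, SE 0.16, adjusted p = 0.00393), were higher in KLF4. FABP3 stayed called without any 1 library, and FABP5 in all but the fit without KLF4 replicate 1 (adjusted p = 0.0595). Of 10 retroviral entries 20% were called, with ERVK-8 higher in KLF2 and ERVW-1 in KLF4, the latter at 13.1 and 10.6 CPM in KLF2 and 20.9 and 19.9 CPM in KLF4 (-0.79, SE 0.13, adjusted p = 0.0118). ERVW-1 was called without KLF2 replicate 1 only, at adjusted p = 0.0958, 0.13 and 0.0753 without the others.

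**Figure D5:**
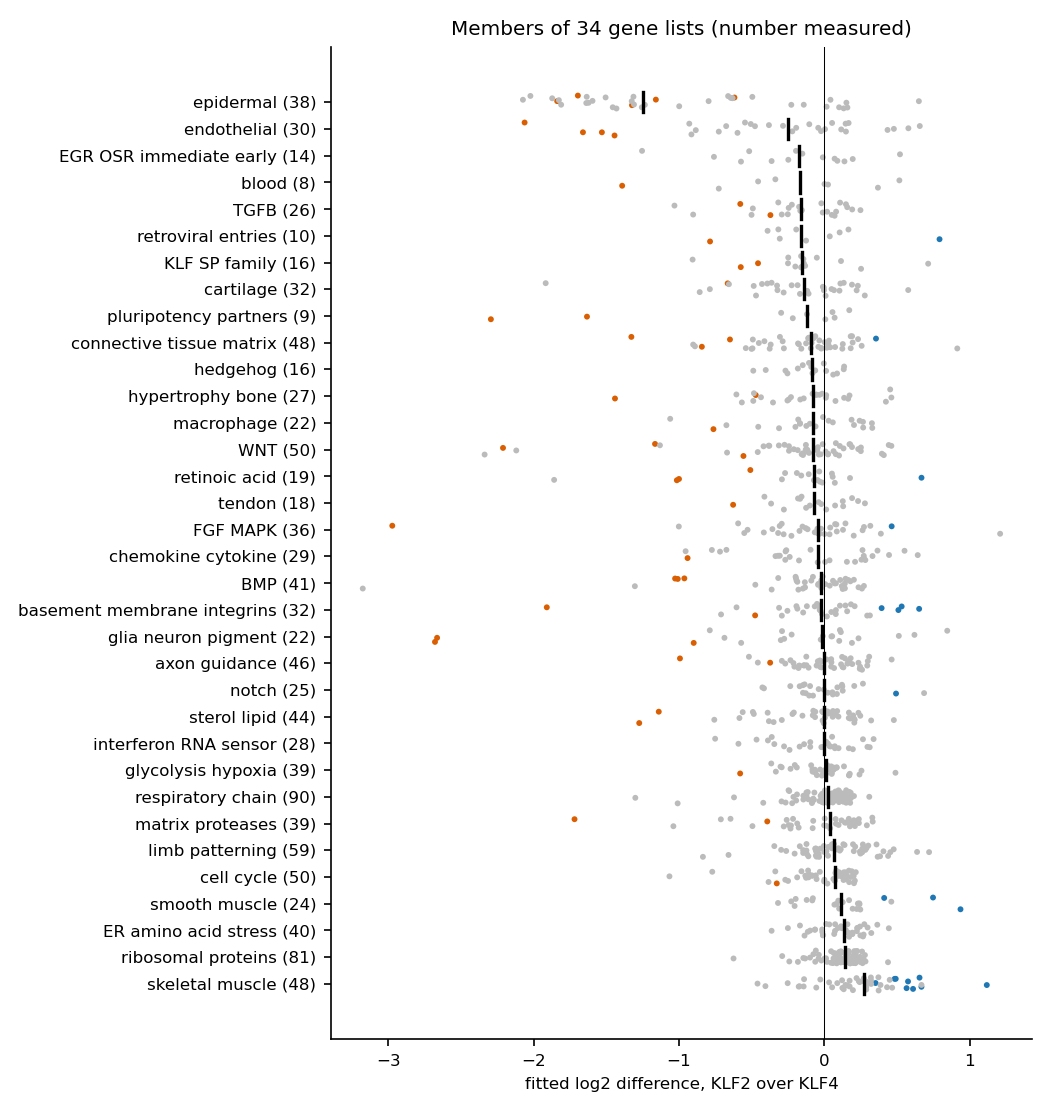
Fitted log2 difference of KLF2 over KLF4 (horizontal) of each measured member of 34 gene lists, ordered by the list median (black bars), with called members in blue (higher in KLF2) or orange (higher in KLF4). The epidermal list has the lowest median, at -1.25, and the skeletal muscle list the highest, at 0.27.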

How the data were processed

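The authors deposited raw read counts per gene for each library. TopHat2, SAMtools, featureCounts, DESeq2 and the build galGal4 appear in the submitters' processing notes; versions, strand setting and handling of shared reads were not given in the sources used here. Counts were analysed with R 4.3.3 and edgeR 4.0.16: filterByExpr (minimum count 10), TMM scaling, 1 quasi-likelihood model of all 12 libraries with a term per group, robust shrinkage, and Benjamini-Hochberg adjustment over 18979 genes. Figures used Python 3.11.15 and matplotlib 3.10.9. With 2 libraries against 2, an exact permutation test could not go below p = 0.333. DESeq2 1.42.0 and other settings were alternatives. The script was tested on simulated data.

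The genes named are KLF2 and KLF4, up to 12 called genes per direction with the largest differences (with a symbol, at least 5 CPM and groups apart), and of each list every called member and the 3 with the smallest p. All others were chosen after their values were seen: COL2A1, ACAN, SOX9, RUNX2, TNMD, SCX, COL1A1, KRT14, CLDN1, TP63, CDH1, KRT5, GRHL2, PERP, TMPRSS11D, SCNN1A, EZR, CD44, HAS2, PECAM1, ERG, CDH5, NOS3, MYOD1, MYOG, ACTA1, ACTA2, TAGLN, NOTCH1, CYP26B1, TBX4, MSX2, KLF5, SOX2, MYC, ADPRHL1 and CDKN1A. The comparison, lists and rule were chosen with earlier results of these data known. RPS6K kinases were left out of the ribosomal protein list. Some results of the rule are not reported here.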

Additional observations from a re-analysis of the deposited data

Results flagged for a closer look

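For 92 called genes, 27 of them higher in KLF2 and 65 higher in KLF4, both KLF2 libraries lay on one side of both Control libraries and both KLF4 libraries on the other. Of the genes described above, 12 are among them. The log2 difference of KLF2 over KLF4 was -2.12 for ITIH5, -1.72 for MMP7, -1.14 for FABP5, -0.94 for IL1R1 and -0.79 for ERVW-1, with KLF2 below and KLF4 above Control. It was 1.12 for MYH1E, 0.67 for PTX3, 0.65 for LAMA1, 0.61 for MYH15, 0.53 for ITGA8, 0.51 for NID1 and 0.46 for SPRY1, with KLF2 above and KLF4 below Control. That the changes from Control had opposite signs was not itself tested, while the direct difference between KLF2 and KLF4 was. A larger called difference makes room for Control between the groups. Over all genes tested, the Control mean lay between the group means for 11.8% of KLF2-higher and 10.2% of KLF4-higher estimates, a looser measure. Among called genes these shares were 39.1% and 25.5%. Some margins were small, as for PTX3, with KLF4 at 103.9 and 104.1 CPM and Control at 104.2 and 127.5 CPM. ITIH5, MMP7 and IL1R1 stayed called without any 1 KLF library.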

How the results depend on the processing

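Median-of-ratios or total-count scaling, no low-count filter, thinning to the smallest total and non-robust shrinkage (chosen after seeing the data) kept the number of calls within 1.5 times of 505. DESeq2 called 781 genes (239 higher in KLF2), and 35 between OSR1 and OSR2. The 4 KLF libraries alone gave 258 calls, 14 higher in KLF2 and 244 in KLF4, and the test against a 1.5-fold change 72, 3 and 69. Without Control, 80 genes were higher in KLF2. Differences between replicates 1 and 2, correlated across genes between groups, had no common sign (r = -0.288 between KLF2 and KLF4, -0.534 to 0.607 over 15 pairs of groups). The labels do not say whether libraries of the same number share a culture series, so pairing cannot be told from these values. With the replicate block, 382 genes were called, 80 of them higher in KLF2, and 5 between OSR1 and OSR2; crossing the KLF4 numbers, an alternative chosen after seeing the data, gave 432. Without single replicates, calls ran from 93 to 471 in all, 5 to 105 higher in KLF2 and 88 to 366 higher in KLF4, and OSR calls from 2 to 103. Of 89 called genes named by the rule, 22 stayed called under all 15 alternatives. The medians of 15 of 34 lists changed sign under some alternative. The causes of these shifts were not tested. With 2 libraries a group, 4018 genes were neither called nor bounded within 2-fold.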
